A study of Homo sapiens with 8 samples.

Results

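The genes described here carry the symbols of mitochondrial ribosomal proteins. They were taken as every protein-coding gene of GENCODE 44 whose symbol begins with MRPL or MRPS followed by a number, which gave 78 of the 20033 protein-coding genes on chromosomes 1 to 22, X and Y. The rule used the symbol and no binding value, although the group was picked with earlier results of these data known. Of the 78, 51 encode proteins of the large subunit and 26 proteins of the small subunit. MRPS36 was assigned to neither and is a member by its symbol alone. By the same general knowledge, 47 of these proteins have a counterpart in the bacterial ribosome and 30 are specific to mitochondria.

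The mitochondrial ribosome sits in the mitochondrial matrix and translates the few messages encoded by mitochondrial DNA, most for core subunits of the respiratory chain. Its rRNAs are mitochondrial, whereas all of its proteins are made from nuclear genes, translated in the cytosol and imported. The promoters of these nuclear genes are CpG-rich and active in most cell types, and factors of the ETS family, YY1 and NRF1 are known to act at promoters of this kind. TAZ, a transcriptional co-activator of the Hippo pathway, does not bind DNA directly and is brought to it mainly by TEAD factors, often at distal elements that also hold AP-1 sites.

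TAZ binding was profiled by ChIP-seq in MCF10A, a non-transformed human mammary epithelial cell line, carrying a TAZ-4SA transgene, a constitutively active form of TAZ, that is switched on by doxycycline (Dox). Cells were left without Dox or given 0.05 µg/ml Dox for 24, 48 or 72 h. Each of the 4 conditions had 1 TAZ library and 1 IgG library, and 1 peak list was available per condition, so there was no replicate and no test of any difference between times. A gene was counted as bound when a peak summit lay within 1 kb of any of its annotated transcription start sites (TSS), and its strongest such peak was used.

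In order of time, the 4 lists held 2431, 2469, 11767 and 38667 peaks. Of these, 57.8%, 11.2%, 8.86% and 28.1% had their summit within 1 kb of the TSS of a protein-coding gene. The lowest local background at any peak was 1.49, 1.42, 2.84 and 2.01 fragments in the same order, and the median at bound protein-coding promoters was 2.74, 2.34, 4.83 and 4.21 fragments. Both were solved from the deposited values because read totals are unknown. A weak site can therefore be missed in one list and called in another, and fold enrichment was computed within each list against its own background.

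Sequences are shown first for members among those with the strongest peaks at a given time, as 60 bp on either side of the summit (hg38), read along the strand of the gene and with any bases of an annotated UTR removed. They let the core promoters bound without Dox be read beside the sites found at 48 h. Capitals mark a match to one of the searched motifs, an ETS core in MRPS31 and an SP/KLF site in MRPL40, and a sequence without capitals held no match in the stretch shown. MRPL44 and MRPS31 are shown at the summit without Dox, MRPL40 at its 24 h summit, and MRPS12 and MRPS24 at their 48 h summits.
MRPL44, chr2:223957355-223957462, plus strand: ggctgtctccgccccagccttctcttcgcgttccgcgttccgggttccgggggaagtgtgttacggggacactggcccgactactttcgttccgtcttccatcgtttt
MRPS31, chr13:40771191-40771308, minus strand: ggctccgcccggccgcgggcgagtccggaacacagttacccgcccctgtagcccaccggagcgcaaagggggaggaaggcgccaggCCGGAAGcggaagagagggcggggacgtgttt
MRPL40, chr22:19432395-19432515, plus strand: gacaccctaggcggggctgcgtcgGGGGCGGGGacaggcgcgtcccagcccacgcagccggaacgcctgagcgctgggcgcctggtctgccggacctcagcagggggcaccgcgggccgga
MRPS12, chr19:38930303-38930423, plus strand: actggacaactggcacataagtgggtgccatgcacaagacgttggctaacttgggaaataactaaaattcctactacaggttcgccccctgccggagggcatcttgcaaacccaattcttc
MRPS24, chr7:43869936-43870056, minus strand: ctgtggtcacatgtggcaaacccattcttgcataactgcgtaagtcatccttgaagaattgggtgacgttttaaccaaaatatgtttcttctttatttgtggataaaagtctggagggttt

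The summits at MRPL44 and MRPS31 lay just upstream of the gene and in no other protein-coding gene. The MRPL40 summit lay upstream of its gene and in introns of HIRA and C22orf39, the MRPS12 summit in an intron of SARS2, and the MRPS24 summit in an intron of the readthrough gene URGCP-MRPS24. The corresponding windows at MRPL21, MRPS15 and MRPL24 lay mostly or wholly in annotated UTRs and are not printed. The MRPL21 summit lay outside MRPL21 and in a UTR exon of its neighbour IGHMBP2. No window is printed for MRPL13, the strongest member without Dox.

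To see how many of these promoters carried TAZ binding at each time, the bound members were counted in the 4 lists. Without Dox, 20 of the 78 genes were bound (25.6%, exact binomial 95% interval 16.4 to 36.8), where 8.45% of all protein-coding genes were. At 24 h, 2 genes were bound (2.56%, interval 0.312 to 8.96), beside 1.54% of all protein-coding genes. At 48 h, 4 genes were bound (5.13%, interval 1.41 to 12.6), beside 5.11% of all protein-coding genes. At 72 h, 71 genes were bound (91.0%, interval 82.4 to 96.3), where 53.4% of all protein-coding genes were. The shares of the mitochondrial ribosomal protein genes thus lay above the genome-wide share without Dox and at 72 h, and close to it at 24 h and 48 h. These intervals cover counting error over genes of a single library.

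**Figure D1:**
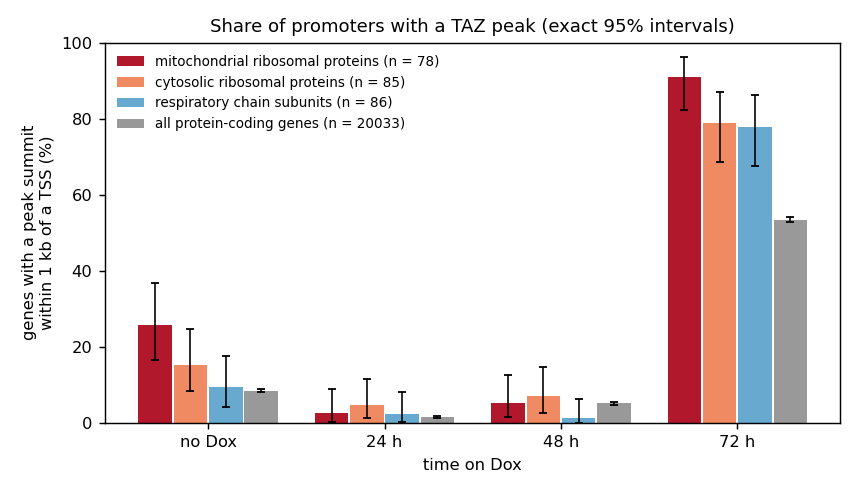
Bars give the percentage of genes with a TAZ peak summit within 1 kb of a TSS at each time, for the 78 mitochondrial ribosomal protein genes, 85 cytosolic ribosomal protein genes, 86 nuclear genes of respiratory chain subunits and all 20033 protein-coding genes, with exact binomial 95% intervals. The mitochondrial ribosomal protein genes have the tallest bar without Dox (25.6%) and at 72 h (91.0%), and all bars are below 10% at 24 h and 48 h.

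The most frequent pattern was binding at 72 h alone, found at 48 members (61.5%, beside 41.4% of all protein-coding genes). Another 17 members were bound without Dox and at 72 h but at neither time between (21.8%, beside 6.47%). MRPL40 and MRPS15 were bound without Dox, at 24 h and at 72 h, MRPL48 without Dox, at 48 h and at 72 h, and MRPL34, MRPS12 and MRPS24 at 48 h and 72 h. No member was bound at all 4 times, as 0.439% of all protein-coding genes were, and 7 were bound at none (8.97%, beside 46.2%).

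**Figure D2:**
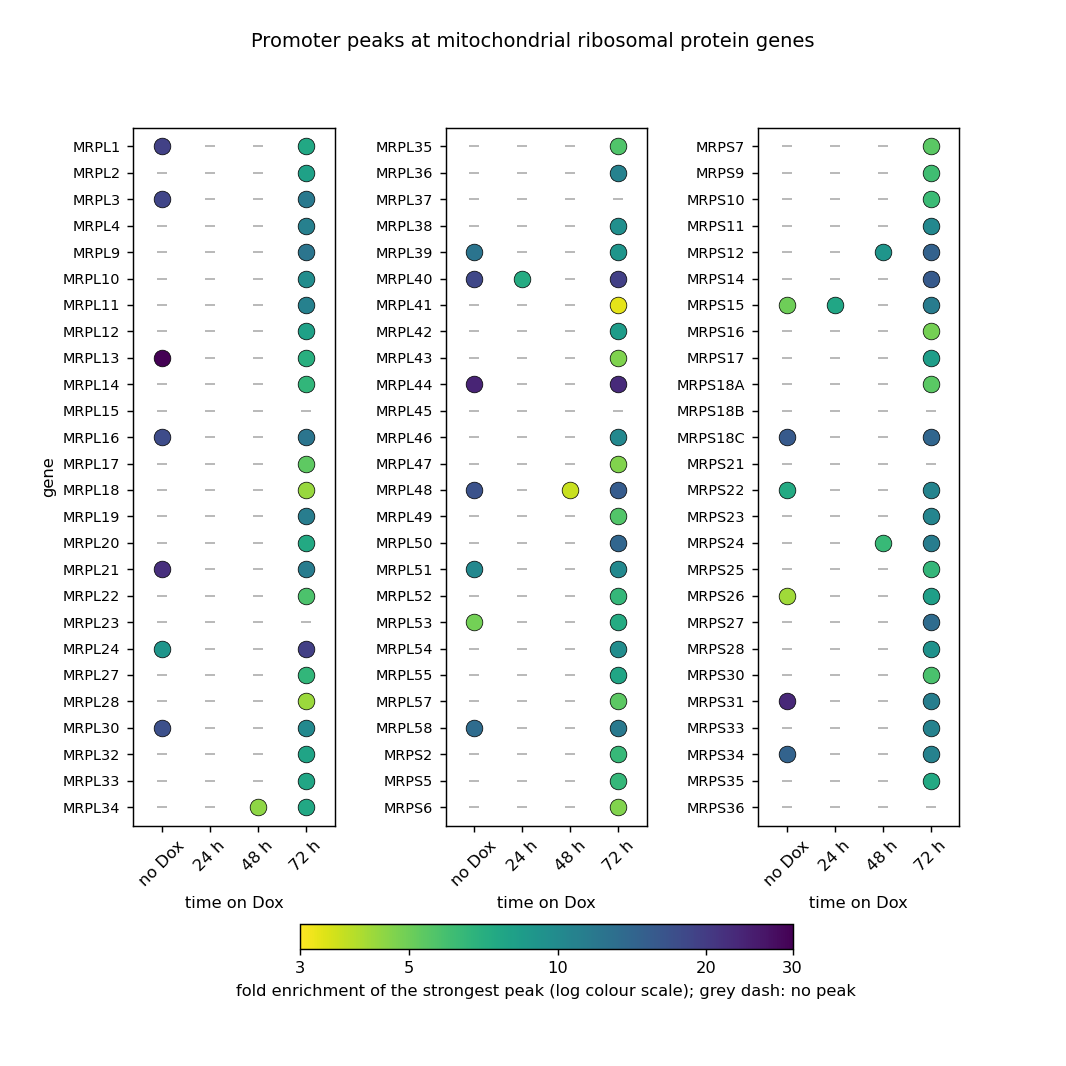
Each row is 1 of the 78 genes and each column a time; a filled circle marks a promoter peak, coloured by its fold enrichment on a log colour scale, and a grey dash marks no peak. Most rows have a circle at 72 h only, 20 rows also have one without Dox, and only 6 rows have one at 24 h or 48 h.

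Without Dox, the fold enrichment at the 20 bound members ranged from 4.17 at MRPS26 to 29.8 at MRPL13, with a median of 16.3. The median over all protein-coding promoter sites of that list was 5.93. The 8 strongest were all large-subunit genes but 1. MRPL13 (29.8), MRPL21 (22), MRPL1 (19.3), MRPL3 (18.7) and MRPL16 (17.6) encode proteins with bacterial counterparts. MRPL44 (23.8), MRPL40 (18.4) and the small-subunit gene MRPS31 (23.2) encode mitochondria-specific proteins. The other 12 bound members were MRPL30, MRPL48, MRPS18C, MRPS34, MRPL58, MRPL39, MRPL51, MRPL24, MRPS22, MRPS15, MRPL53 and MRPS26. Of these, MRPL58 encodes a peptidyl-tRNA hydrolase built into the large subunit. MRPS15, MRPL53 and MRPS26 lay at or below 5.00, and the remaining 9 lay between 7.42 and 17.1.

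Both subunits took part. Of the 51 large-subunit genes 14 were bound without Dox (27.5%) and of the 26 small-subunit genes 6 (23.1%), and at 72 h the counts were 47 and 24 (92.2% and 92.3%). Of the genes with a bacterial counterpart, 9 of 47 were bound without Dox (19.1%, interval 9.15 to 33.3), and of the mitochondria-specific genes 11 of 30 (36.7%, interval 19.9 to 56.1). These intervals overlap, which does not show that the shares are alike, and the difference was not tested. At 72 h the shares were 91.5% and 93.3%.

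The lists at 24 h and 48 h held 6 members between them. At MRPL40, a large-subunit gene next to HIRA, fold enrichment was 18.4 without Dox, 7.35 at 24 h and 19.3 at 72 h, with no peak at 48 h. The summits carried 96, 26 and 95 fragments at those times. At MRPS15, fold enrichment was 5.00 without Dox, 7.68 at 24 h and 11.5 at 72 h, again with no peak at 48 h. The MRPS15 summits carried 20, 19 and 109 fragments at those times, over a local background of 3.20, 1.60 and 8.58. The 24 h fold enrichment was thus below the value without Dox at MRPL40. At MRPS15 it was above that value, although the fragments did not rise.

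At MRPL48, fold enrichment was 16.8 before Dox, 3.62 at 48 h and 15.5 at 72 h, and the 48 h summit lay 208 bp downstream of a TSS, 307 bp from the summit without Dox. MRPS12, which encodes a protein of the decoding centre of the small subunit, had 9.05 at 48 h and 14.7 at 72 h, with summits 581 and 542 bp upstream. SARS2, the divergently transcribed gene of the mitochondrial seryl-tRNA synthetase, had its TSS nearer to these summits, at 230 and 269 bp. MRPS24 had 6.35 at 48 h and 11.5 at 72 h, 103 and 65 bp upstream of a TSS. MRPL34 had 4.44 at 48 h and 7.53 at 72 h, 863 and 783 bp upstream. At the 3 genes bound at 48 h but not without Dox, the value at 72 h was the higher.

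At 72 h, the 71 bound genes had 70 distinct peaks, because the divergent neighbours MRPL46 and MRPS11 shared 1 (fold enrichment 10.2). Fold enrichment ranged from 3.31 at MRPL41 to 22.8 at MRPL44, with a median of 8.29, beside 6.66 for all protein-coding promoter sites of that list. The 8 highest were MRPL44 (22.8), MRPL24 (19.5), MRPL40 (19.3), MRPS14 (15.7), MRPL48 (15.5), MRPS12 (14.7), MRPS18C (14.1) and MRPL50 (14.1). MRPS14, MRPS12 and MRPL50 of this group had no peak without Dox. At the low end, MRPL41 (17 fragments) and MRPS6 (13 fragments) carried the fewest fragments.

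Members bound without Dox had the higher values at 72 h. Their median at 72 h was 11.4 over 20 sites, against 7.51 over the 50 other sites, and the corresponding medians over all protein-coding genes were 9.95 and 6.32. The same ordering thus held genome-wide.

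To ask what happened to the binding present before Dox, the 20 genes were followed into the later lists. All 20 were bound again at 72 h, as were 96.3% of all protein-coding genes bound without Dox, whereas 2 (10%) were called at 24 h and 1 (5%) at 48 h, beside 9.34% and 15.8% of those protein-coding genes. The 72 h summit lay a median of 20 bp from the summit without Dox (74 bp over all protein-coding genes), and 13 of the 20 summits moved by at most 50 bp. Summits at MRPS18C, MRPL44 and MRPS31 were displaced by 0, 1 and 2 bp.

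The fold enrichment at 72 h divided by that without Dox had a median of 0.888 and was below 1 at 14 of the 20 genes. Over all protein-coding sites bound in both lists the median ratio was 1.39, and 30.6% lay below 1. The ratio of summit fragments, not scaled for depth, had a median of 1.04 at the 20 genes and 2.14 over all these sites. The lower fold enrichment thus did not come with fewer fragments at the median member. The lowest ratio was at MRPL13, 29.8 without Dox and 7.02 at 72 h (94 and 60 fragments, over a local background of 2.19 and 7.69). MRPL1 followed, with 19.3 and 7.52. The highest ratios were 2.29 at MRPS15 and 2.16 at MRPL24, where fold enrichment was 9.06 without Dox and 19.5 at 72 h (51 and 163 fragments). MRPL44, the strongest member at 72 h, had nearly the same value at both times (23.8 and 22.8, with 130 and 143 fragments).

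The ratios differed with the height of the peak before Dox, which is itself the denominator of the ratio, so a lower ratio at higher peaks is built into such a split. Of the 5 members under 10 without Dox none had a ratio below 1, of the 4 between 10 and 15 all had, and of the 11 at or above 15 10 had, with median ratios of 1.97, 0.817 and 0.633. Over all protein-coding sites the same 3 classes had 15.4%, 59.4% and 91.1% below 1 and median ratios of 1.68, 0.909 and 0.593. These classes hold few members and are given as a description. Fold enrichment is relative to the background of its own list, and whether these ratios reflect less bound TAZ or a different background cannot be told apart.

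**Figure D3:**
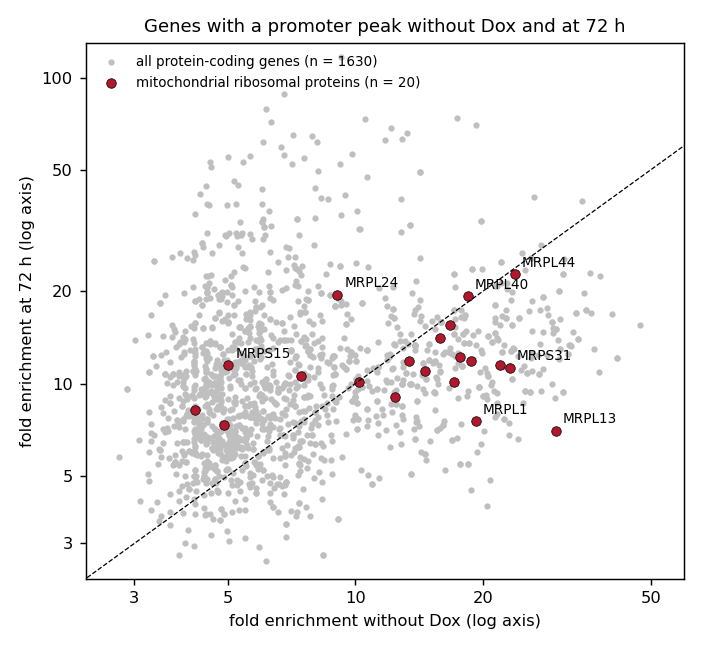
Fold enrichment at 72 h (vertical log axis) is plotted against fold enrichment without Dox (horizontal log axis) for genes with a promoter peak in both lists; red points are the 20 mitochondrial ribosomal protein genes, grey points all 1630 such protein-coding genes, and the dashed line marks equal values. Of the red points 14 lie below the line, with MRPL13 (29.8 and 7.02) farthest from it.

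Binding at these genes was tight to the TSS. Without Dox the summits lay from 128 bp upstream to 156 bp downstream, a median of 40 bp away (79.5 bp over all bound protein-coding genes), with 17 of 20 within 100 bp and 15 upstream. At 72 h the median distance was 28 bp (88 bp over all bound protein-coding genes), and 56 of 71 genes (78.9%) had the summit within 100 bp, beside 53.9%. The summits at MRPL34 and MRPS12 were the only ones more than 250 bp away. At 48 h the 4 summits were a median of 394.5 bp away and none was within 100 bp.

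**Figure D4:**
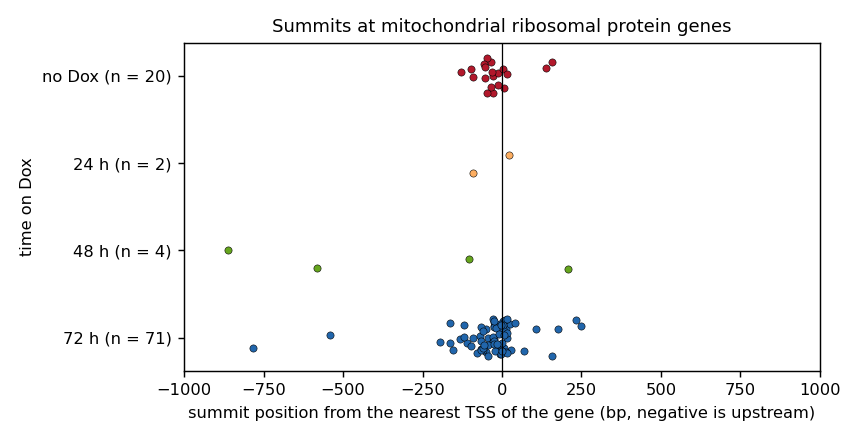
Each point is a mitochondrial ribosomal protein gene bound at the time given on the vertical axis, placed at the distance in bp of its summit from the nearest annotated TSS, with upstream positions negative; vertical scatter within a row is only for legibility. The points without Dox and at 72 h crowd around 0, and the 4 points at 48 h lie between 863 bp upstream and 208 bp downstream.

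Many of these promoters are bidirectional. Another protein-coding TSS lay on the opposite strand within 1 kb upstream at 29 of the 78 genes (37.2%), beside 12.6% of all protein-coding genes. Partners included TWNK, the mitochondrial DNA helicase, at MRPL43, the complex I subunit gene NDUFB5 at MRPL47, the cytosolic ribosomal protein gene FAU at MRPL49, and the proteasome gene PSMA2 at MRPL32. Without Dox 7 of the 29 bidirectional members were bound (24.1%) and 13 of the other 49 (26.5%), and at 72 h 27 and 44 (93.1% and 89.8%). Genome-wide, bidirectional promoters were bound more often than others in both lists (17.0% against 7.21% without Dox, and 83.3% against 49.1% at 72 h). At 28 of the 71 genes bound at 72 h the summit also lay within 1 kb of another protein-coding gene's TSS. That TSS was the nearer one at 12, MRPL50 among them. Without Dox the same held at 7 of 20, and the other TSS was nearer at 2, MRPL21 and MRPL51. Binding at such summits cannot be assigned to the member alone, and no genome-wide share was taken.

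At 72 h, 7 members had no summit within 1 kb, namely MRPL15, MRPL23, MRPL37, MRPL45, MRPS18B, MRPS21 and MRPS36, and none of them had one at any other time. The nearest summit at 72 h was 2950 bp away for MRPL23, 7921 bp for MRPS36, 11959 bp for MRPS21, 23479 bp for MRPL37, 33367 bp for MRPL15, 167911 bp for MRPL45 and 2127892 bp for MRPS18B. Inside the limit, the farthest members by nearest summit were MRPS12 at 542 bp, MRPL41 at 250 bp and MRPL18 at 194 bp. By that measure no member lay close to the 1 kb limit at 72 h, whereas MRPL34 at 48 h lay 863 bp away.

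For 4 of these 7, the whole window of 500 bp on either side of the TSS occurs a further time in the hg38 reference at 99% identity or more. Those of MRPL45 and MRPS36 are repeated on 1 alternate sequence each, that of MRPS18B on 6, and that of MRPL23 on an unlocalized sequence of chromosome 11. Reads from such a promoter map to more than 1 place when all sequences are used, and how such reads were treated is not given in the sources used here. Over all protein-coding genes, 1201 had a promoter copied over more than 90% of its length, and 38 of them were bound at 72 h (3.16%), beside 56.6% of the remaining 18832. Of the 74 members without such a copy, 71 were bound at 72 h (95.9%), which leaves MRPL15, MRPL37 and MRPS21 unbound. MRPS21 and MRPL37 are a small-subunit and a large-subunit gene on chromosome 1, and MRPL15 a large-subunit gene on chromosome 8. Whether multiple mapping accounts for the 4 genes was not tested.

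To look for sequences shared by the bound promoters, 13 motifs were searched on both strands within 100 bp on either side of each summit. The ETS core CCGGAAG was present at 11 of 20 member summits without Dox (55%, interval 31.5 to 76.9) and at 26.9% of all protein-coding promoter summits of that list. At 72 h it was present at 25 of 70 (35.7%, interval 24.6 to 48.1), beside 15.5%. The YY1 core ATGGCGG was present at 3 of 20 without Dox (15%, beside 7.24%) and at 21 of 70 at 72 h (30%, interval 19.6 to 42.1, beside 7.64%). Both cores were thus above the genome-wide share at 72 h, whereas without Dox the interval for YY1, 3.21 to 37.9, included it.

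The distance from the summit to the ETS core was taken for members only. Without a genome-wide share beside it, these counts do not show that the core lies especially near the summit. Of the 11 summits with a core without Dox, 6 had it within 30 bp, namely MRPS34 (2 bp), MRPL3 (3 bp), MRPL51 (7 bp), MRPL53 (8 bp), MRPL58 (28 bp) and MRPS31 (29 bp, in capitals in the sequence above). At 72 h 11 of 25 had it within 30 bp. Members without a core were no weaker, with a median fold enrichment of 17.1 against 14.6 for those with one without Dox, and 8.41 against 8.22 at 72 h.

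The TEAD motif, ACATTCC or GCATTCC, was at 0 of 20 member summits without Dox (upper limit of the interval 16.8%), 0 of 2 at 24 h and 0 of 4 at 48 h. It was at 4 of 70 at 72 h (5.71%, interval 1.58 to 14.0, beside 10.8% of all protein-coding promoter summits), in MRPL24, MRPS14, MRPL11 and MRPL2, with fold enrichments of 19.5, 15.7, 11 and 8.03. The AP-1 motif, TGACTCA or TGAGTCA, was at MRPL2 alone at 72 h and at none without Dox. The MRPL2 summit used here lay 232 bp downstream of an annotated TSS other than the canonical one. Another, weaker MRPL2 peak at 72 h (fold enrichment 7.07), 1 bp from a TSS, was not used in the motif counts at summits. Among all protein-coding promoter summits the TEAD motif was present at 42.8% at 24 h and 39.0% at 48 h, so the 6 member summits of those lists, of which none held it, are too few for a comparison.

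The other 9 motifs were rarer or near the genome-wide share. At 72 h the SP/KLF motif GGGGCGGGG was at 14.3% of member summits and 16.8% of all, NRF1 at 8.57% and 5.61%, the NFY motif (CCAAT followed by C or G and then by A or G) at 5.71% and 10.9%, and the E-box CACGTG at 2.86% and 7.49%. CREB (TGACGTCA), RUNX (TGTGGTT) and ZBTB33 matched 1 member summit each, and ZNF143 and STAT (TTCCNGGAA) none.

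**Figure D5:**
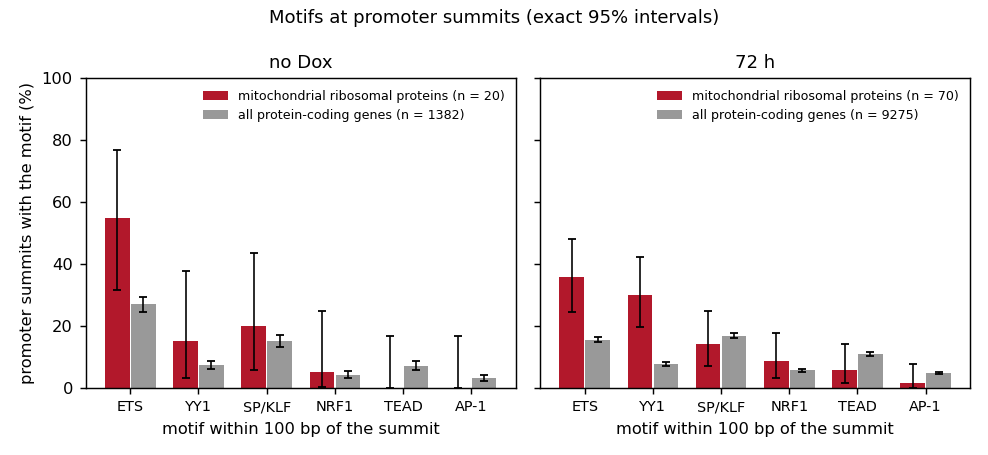
Bars give the percentage of promoter summits with a match to each motif within 100 bp, for mitochondrial ribosomal protein genes (red) and all protein-coding genes (grey), without Dox on the left and at 72 h on the right, with exact binomial 95% intervals. The ETS bars are 55% and 26.9% without Dox and 35.7% and 15.5% at 72 h, and the YY1 bars at 72 h are 30% and 7.64%.

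The same motifs were counted in the promoters themselves, 250 bp before to 50 bp after the TSS, whether bound or not. The ETS core was in 32 of the 78 member promoters (41.0%, beside 14.1% of all protein-coding promoters) and the YY1 core in 26 (33.3%, beside 7.82%). Among members bound without Dox 13 of 20 promoters held the ETS core (65%), and among the others 19 of 58 (32.8%). Over all protein-coding genes bound without Dox, 32.1% of promoters held it, also above the 14.1% of all promoters. For the YY1 core the shares were 4 of 20 (20%) and 22 of 58 (37.9%). The median GC content of member promoters was 59.7%, below the 63.7% of all protein-coding promoters, and their median ratio of observed to expected CpG was 0.886, above the genome-wide 0.775.

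Cytosolic ribosomal protein genes and nuclear genes of respiratory chain subunits, which are close in function, were compared by the same rules. Of the 85 cytosolic ribosomal protein genes 13 were bound without Dox (15.3%, interval 8.40 to 24.7) and 67 at 72 h (78.8%, interval 68.6 to 86.9). Of the 86 respiratory chain subunit genes 8 were bound without Dox (9.30%, interval 4.10 to 17.5) and 67 at 72 h (77.9%, interval 67.7 to 86.1). Each group's interval overlapped that of the mitochondrial ribosomal protein genes at both times, for the respiratory chain genes without Dox only from 16.4 to 17.5. Such overlap does not show that the shares are alike, and the differences were not tested. The median fold enrichment without Dox was 5.15 at cytosolic ribosomal protein genes and 12.3 at respiratory chain genes, against 16.3 here, and at 72 h 7.02 and 6.20 against 8.29. The ratio of 72 h to no Dox had a median of 1.80 over 12 cytosolic ribosomal protein sites and 1.18 over 8 respiratory chain sites. Summits without Dox lay a median of 86 bp from a TSS at cytosolic ribosomal protein genes and 27.5 bp at respiratory chain genes. The median was 40 bp here, so the respiratory chain summits were the closer. At 72 h the medians were 77 and 52 bp against 28 bp. The ETS core was in 35.3% and 27.9% of the promoters of these groups, and the YY1 core in 17.6% and 27.9%.

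Other genes of mitochondrial gene expression were likewise bound mostly at 72 h and less often without Dox. All protein-coding genes also had their highest share at 72 h and the next without Dox, with 8.45%, 1.54%, 5.11% and 53.4% in order of time. All 5 further proteins of the mitochondrial ribosome with other symbols were bound at 72 h and 2 without Dox, with AURKAIP1 the highest (26.2 without Dox, 18.6 at 72 h) and PTCD3 at 9.06 at 72 h. All 13 translation factors were bound at 72 h and 5 without Dox, led at 72 h by MTIF2, the initiation factor that places the first tRNA (17.2 without Dox, 15.3 at 72 h), and MTIF3 (14.0 at 72 h). TACO1, a translational activator of a cytochrome c oxidase subunit, was the translation factor gene bound at 24 h, where fold enrichment was 5.98, after 19.9 without Dox and before 12.5 at 72 h.

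Of 23 genes of ribosome assembly and rRNA modification, 4, 2, 2 and 21 were bound in order of time (17.4%, 8.70%, 8.70% and 91.3%). MALSU1, an assembly factor of the large subunit, had no peak without Dox and fold enrichments of 10.6, 24.2 and 71.0 at 24, 48 and 72 h, 194 to 264 bp upstream of its TSS. That value at 72 h was above every mitochondrial ribosomal protein gene. MTERF4, which guides an rRNA methyltransferase to the large subunit, reached 23.4 before Dox and 19.9 at 72 h. METTL17 had 6.44 at 24 h and 10.7 at 72 h, and the helicase gene DHX30 stood at 5.63 before Dox, 4.87 at 48 h and 16.1 at 72 h.

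Of 19 mitochondrial aminoacyl-tRNA synthetase genes, 4, 0, 2 and 17 were bound in order of time (21.1%, 0%, 10.5% and 89.5%). SARS2 (by the peak shared with MRPS12) and FARS2 (3.69) were the pair bound at 48 h. The highest at 72 h were SARS2 (14.7) and GARS1 (14.0), and FARS2 stood at 3.92 before Dox and 9.79 at 72 h. Of 10 genes of mitochondrial transcription and RNA stability, 2 were bound without Dox (20%) and 9 at 72 h (90%). The highest at 72 h were TEFM, the transcription elongation factor (13.5 and 9.98), and POLRMT, the mitochondrial RNA polymerase (9.82 at 72 h).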

How the data were processed

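ChIP-seq was performed on 8 libraries, 1 TAZ and 1 IgG library in each of 4 conditions, grouped by their titles. Low-quality bases had been trimmed before BWA alignment against hg38, and MACS2 peaks had been kept at a false discovery rate of 0.01 (versions not given in the sources used here). The deposited lists give, for each peak, the fold enrichment over local background as a ratio with a pseudocount of 1, and the authors also gave −log10 of the p-value and q-value and the summit offset. Per the labels both libraries of a condition point to 1 list, and whether IgG served as the control is not given in the sources used here. Columns of other series numbered 0.

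Start sites came from GENCODE 44, and distances, motifs and sequences from hg38. Summit fragments were solved from fold enrichment and p-value, which returned 100% of the deposited p-values within 0.003. Promoter copies were sought with blastn 2.17.0 (word size 100, identity 99%). Python 3.11.15, pandas 2.3.3, scipy 1.17.1 and pysam 0.24.0 were used, and the scripts were tested on simulated data. With 1 TAZ library per condition no test between times was possible, and intervals cover counting error only. Sets of genes are described by counts and medians beside all protein-coding genes. The members, gene lists and motifs were chosen with earlier results of these data known. Values were given in full for members bound at 24 h or 48 h, the 8 highest without Dox and at 72 h, and members never bound. In each further list, the 2 highest genes at 72 h and those bound at 24 h or 48 h were named. Alternatives to the window, start sites, thresholds, depth and motif settings were tried, and leaving out members with copied promoters was added after seeing the data. Read depth is unknown, which limits what weak sites can show.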

Additional observations from a re-analysis of the deposited data

Results flagged for a closer look

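A peak at the promoter of MRPL45 was found outside the sequences counted above. The whole promoter of this large-subunit gene on chromosome 17 is repeated on an alternate sequence of that chromosome in hg38. The 72 h list held a peak there, on the copy, with a fold enrichment of 5.46 and 19 fragments at the summit (exact Poisson 95% interval 11.4 to 29.7), 222 bp upstream of the copied TSS. The lists without Dox, at 24 h and at 48 h held none there, and no list held a peak within 1 kb of the TSS on chromosome 17. It was singled out because it lies in data that the counts did not use. MRPL45 was counted as unbound above.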

How the results depend on the processing

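Of 72 settings tried over the counts, medians and ETS shares, 67 were labelled unchanged and 5 changed. A count was unchanged within a factor of 1.5, and a median or share when inside the interval of the reported value. With 2 members bound at 24 h and 4 at 48 h these intervals were wide, so the label says little there. At 48 h a median distance of 530 bp in place of 394.5 bp counted as unchanged, as did an ETS share of 25% in place of 0%. Within 500 bp of a TSS, 2 members were bound at 48 h in place of 4, since MRPS12 and MRPL34 lie farther out. In a motif window of 50 bp on either side the ETS core was at 0% of the 24 h summits and 21.4% of the 72 h summits (9.66% of all protein-coding promoter summits at 72 h). With the shorter core CGGAA it was at 90% of member summits without Dox and 61.4% at 72 h, beside 61% and 43.8% of all. The counts without Dox and at 72 h stayed between 19 and 21 and between 70 and 72 under every window, start site set, threshold and depth tried. Scaled to the list of lowest depth they were 20, 2, 3 and 70 in order of time. Depth here means the lowest background solved at any peak, and the factors without Dox and at 24 h were 0.951 and 1. Scaling can only drop called peaks, so it says nothing about sites missed in those lists. Leaving out members with a copied promoter, a setting chosen after seeing the data, could not change these counts. None of the 4 such members was bound at any time. At 24 h the common p-value threshold, which was the weakest p-value of that list, and the depth scaling could not change the count either. Some of the 67 unchanged labels were thus fixed in advance. A median over members bound at all 4 times gave no value, since 0 members were. No paired analysis was possible because each condition had 1 TAZ library and its replicate number is only a name. Leaving out a replicate was not possible for the same reason.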
